A study of Mus musculus with 4 samples.

Results

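Genes of the GABAergic interneuron lineage were followed in mouse cerebral cortex at embryonic day 15 (E15), 9 in all: Dlx1, Dlx2, Dlx5, Lhx6, Sst, Maf, Gad1, Gad2 and Slc32a1. They were chosen by symbol, and all 9 of 9 were present among the 13289 genes of the deposited count table and passed the low-count filter. Polyadenylated RNA was sequenced from 2 control libraries, titled WT, and 2 Lhx2 cKO libraries. The titles stand for wild type and, as cKO, for a conditional knockout of Lhx2, which encodes a LIM-homeodomain transcription factor of cortical progenitors. The labels name no Cre driver, allele, strain, sex or litter, so which cells carried the deletion is not given, and nothing says whether replicates came from separate embryos. The p-values therefore measure only the spread between these libraries, which may be technical. For each gene that spread is estimated largely from all genes together, so it is not the gene's own replicate gap.

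Cortical interneurons are the inhibitory neurons of the cortex. They are born outside it, in the ganglionic eminences of the ventral forebrain, and reach it by tangential migration. Dlx homeobox genes act in newborn GABAergic cells of the eminences. Lhx6 and Maf act in cells from the medial ganglionic eminence (MGE), many of which later make the peptide somatostatin. Gad1 and Gad2 make GABA from glutamate, and Slc32a1 loads it into synaptic vesicles. Where dissected cortex holds no tissue of the eminences, these transcripts report mainly on cells that have already entered it. Whether any such tissue was included was not tested. In bulk RNA, fewer cells of a type and less RNA per cell cannot be told apart.

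Total counts per library were 22294237 to 24609627, and 3 counts, taken as the floor of detection, corresponded to 0.122 to 0.135 CPM (read counts scaled to the library total). The members had 223 to 3068 counts in every library, far above that floor. Lhx2 itself, the targeted gene, had 80.7% of its control level left in the Lhx2 cKO libraries, 239 and 247 CPM beside 316 and 287 (log2 fold change -0.31, adjusted p 0.0191 in edgeR). Its call was lost without control 1 (adjusted p 0.176), without Lhx2 cKO 1 (0.102) and without Lhx2 cKO 2 (0.0538). The presence of cortical neurons was looked up on 10 genes of cortical glutamatergic neurons, such as Neurod2 and Tbr1. All 10 were measured, with a summed level of 2827 to 3067 CPM per library. Such levels cannot show whether tissue from outside the cortex was included.

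The sequences just upstream of 3 members are shown because their transcripts behaved differently: Sst had the largest change of the 9, and Gad1 and Gad2, which encode enzymes of the same reaction, differed in their response. Each is the 250 bases before the start of the gene, 5′ to 3′ on the strand of the gene, from RefSeq on GRCm38.p6. Sst lies at chr16:23890845-23891094 (minus strand), Gad1 at chr2:70561879-70562128 (plus strand) and Gad2 at chr2:22622077-22622326 (plus strand). Capitals mark TGACGTCA, the cAMP response element, for which Sst is a textbook example.
Sst: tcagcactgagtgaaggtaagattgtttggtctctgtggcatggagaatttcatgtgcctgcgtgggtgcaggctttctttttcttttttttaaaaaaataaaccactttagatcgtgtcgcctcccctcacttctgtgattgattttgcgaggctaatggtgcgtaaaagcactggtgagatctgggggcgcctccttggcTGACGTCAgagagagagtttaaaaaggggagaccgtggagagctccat
Gad1: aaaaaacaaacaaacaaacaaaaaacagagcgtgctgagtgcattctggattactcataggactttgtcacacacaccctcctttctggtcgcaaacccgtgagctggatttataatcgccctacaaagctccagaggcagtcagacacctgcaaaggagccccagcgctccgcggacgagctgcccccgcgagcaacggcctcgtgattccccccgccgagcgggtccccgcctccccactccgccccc
Gad2: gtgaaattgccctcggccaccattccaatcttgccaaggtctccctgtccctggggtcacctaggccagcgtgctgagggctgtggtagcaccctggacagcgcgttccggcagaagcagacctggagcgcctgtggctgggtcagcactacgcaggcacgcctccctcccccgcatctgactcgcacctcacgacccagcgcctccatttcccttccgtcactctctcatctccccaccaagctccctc
RefSeq windows were matched for 7 of the 9 members. The element TGACGTCA, searched on both strands, began 48 bases before the start of Sst and was in no window of the other 6 matched members. It is in 1.55% of all 32851 windows of this length. The homeodomain core TAATTA, the kind of site that LIM-homeodomain and Dlx proteins bind, is in 4.84% of all windows and was in none of those of the 7 members. These matches describe letters in a short window and were not measured as binding.

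Of the 9 members, 4 were higher in Lhx2 cKO at an adjusted p under 0.05, which is what a call means here: Sst, Slc32a1, Gad2 and Maf. None of the 9 was called lower. The background was 11.6% of all 13288 tested genes called higher and 9.17% called lower in edgeR's quasi-likelihood test, 20.8% together. The members' median log2 fold change was 0.35, beside 0.003 over all genes tested. The members fell on both sides of the call within 2 of the 3 roles, and in the Dlx role none was called. The groups did not overlap, with Lhx2 cKO above control, for 6 members (the 4 called, Dlx2 and Dlx5), against 30.2% of all tested genes.

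**Figure D1:**
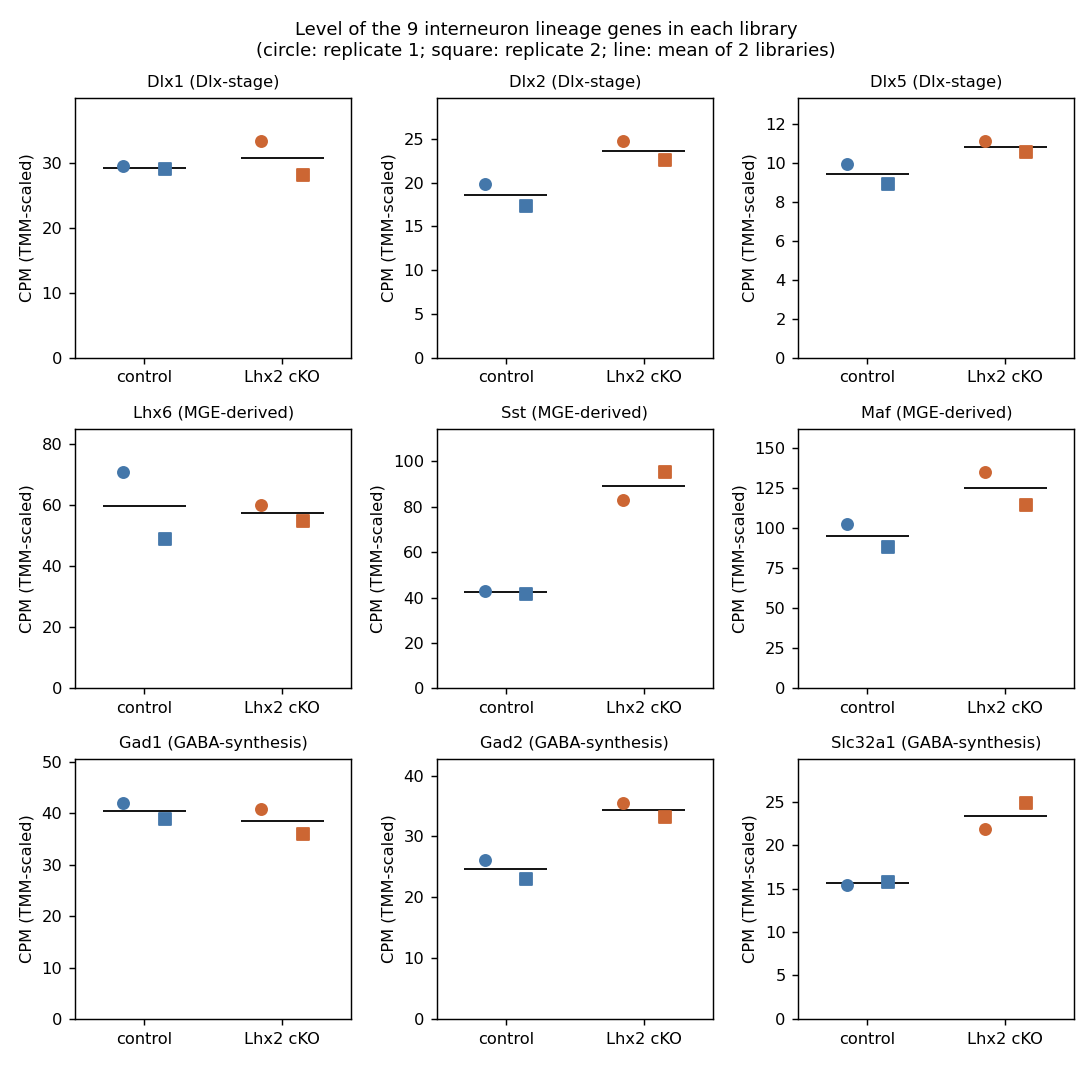
Level of each member in CPM (y axis, scaled with TMM, starting at 0) in the 2 control and 2 Lhx2 cKO libraries. Points are single libraries and lines are group means. Sst, Maf, Gad2 and Slc32a1 are higher in both Lhx2 cKO libraries, while Dlx1, Lhx6 and Gad1 overlap between groups.

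Among the GABA genes, the enzyme Gad2 and the vesicular transporter Slc32a1 rose while the enzyme Gad1 did not pass the test. Slc32a1 (ENSMUSG00000037771.12), which moves GABA into vesicles, measured 15.5 and 15.8 CPM in control, against 21.8 and 24.9 CPM in Lhx2 cKO. Both Lhx2 cKO libraries lay above both controls. The means were 15.6 ± 0.24 and 23.3 ± 2.19 CPM (SD, n = 2), and the log2 fold change was 0.58 (SE 0.135, 95% interval 0.31 to 0.85, adjusted p 0.00141 in edgeR). Gad2 (ENSMUSG00000026787.4), whose product GAD65 is the form linked to synaptic vesicles, was at 26.2 and 23.0 CPM in control, against 35.6 and 33.1 CPM in Lhx2 cKO. These groups were also separate. The means were 24.6 ± 2.22 and 34.3 ± 1.72 CPM (SD, n = 2), and the log2 fold change was 0.48 (SE 0.116, 95% interval 0.25 to 0.71, adjusted p 0.00196 in edgeR).

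Gad1 (ENSMUSG00000070880.11), whose product GAD67 makes most of the GABA of the cell body, was at 42.1 and 38.8 CPM in control, against 40.9 and 36.04 CPM in Lhx2 cKO. The libraries of the groups interleaved. The log2 fold change was -0.07 (SE 0.107, adjusted p 0.689 in edgeR), and its 95% interval of -0.29 to 0.14 does not reach the estimates for Gad2 or Slc32a1. Gad2 and Slc32a1 kept their calls in all 4 fits that left out 1 library, with log2 fold changes of 0.39 to 0.56 and 0.48 to 0.67.

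The same contrast can be read inside each library, where scaling cancels, as a ratio of levels per length (RPKM, CPM per kilobase of the deposited gene length). The Gad2 to Gad1 ratio was 0.809 and 0.772 in control, against 1.13 and 1.195 in Lhx2 cKO. Per length, the higher of the pair thus changed from Gad1 to Gad2. In CPM Gad1 stayed above Gad2 in every library, so this order rests on the deposited lengths of 7639 bases for Gad1 and 5876 for Gad2. The Slc32a1 to Gad1 ratio was 1.003 and 1.11 in control, against 1.46 and 1.89 in Lhx2 cKO. The Slc32a1 to Gad2 ratio overlapped, at 1.24 and 1.44 in control, against 1.29 and 1.58 in Lhx2 cKO. With 2 libraries against 2 an exact two-sided permutation test of a ratio cannot go below 0.333, so these ratios are given without a test.

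**Figure D2:**
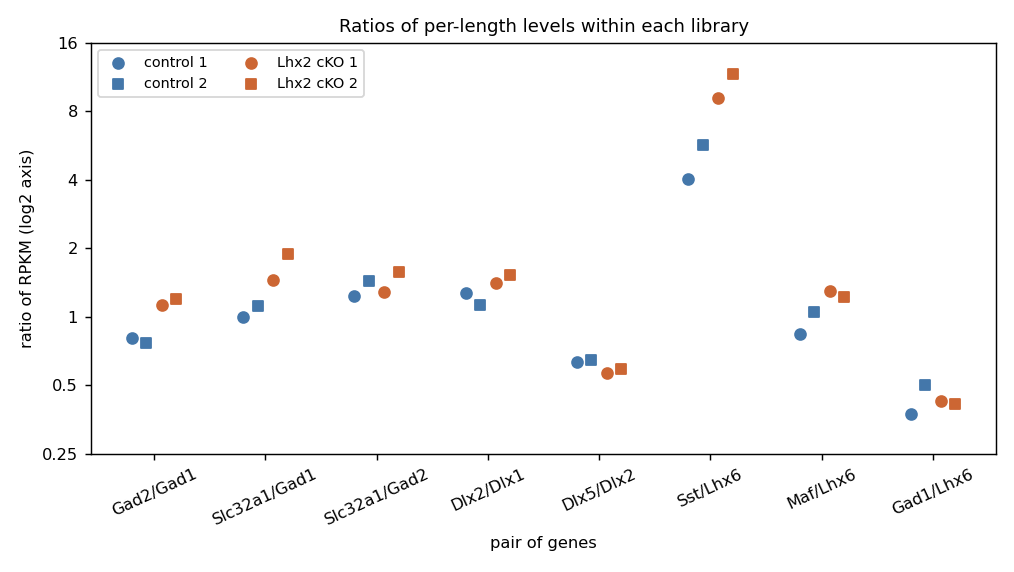
Ratio of per-length levels (RPKM) of pairs of members within each library, on a log2 axis, with circles for replicate 1 and squares for replicate 2. Gad2/Gad1, Slc32a1/Gad1 and Sst/Lhx6 are higher in both Lhx2 cKO libraries than in both controls, and Slc32a1/Gad2 and Gad1/Lhx6 overlap.

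Among the MGE-derived members, Sst and Maf rose and Lhx6 did not pass the test. Sst (ENSMUSG00000004366.5), the somatostatin precursor whose upstream sequence is shown above, was at 43.0 and 41.7 CPM in control, against 83.0 and 95.3 CPM in Lhx2 cKO. The lower Lhx2 cKO library was well above the higher control. The means were 42.3 ± 0.963 and 89.2 ± 8.73 CPM (SD, n = 2), which is 2.11-fold higher, or 1.07 on the log2 scale (SE 0.102, 95% interval 0.87 to 1.28, adjusted p 6.53e-11 in edgeR). Of all tested genes, 2.2% had a higher log2 fold change. The rise was called in all 4 fits that left out 1 library, at 0.97 to 1.17.

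Maf (ENSMUSG00000055435.7), a bZIP transcription factor that acts in MGE-derived interneurons, was at 102 and 88.1 CPM in control, against 135 and 114 CPM in Lhx2 cKO. The groups were separate, but their nearest libraries were closer to each other than the replicates of either group. The means were 95.2 ± 9.93 and 124.6 ± 14.5 CPM (SD, n = 2), and the log2 fold change was 0.39 (SE 0.1, 95% interval 0.19 to 0.59, adjusted p 0.00395 in edgeR). The call was lost without control 2 (0.29, adjusted p 0.082) and without Lhx2 cKO 1 (0.27, adjusted p 0.116). Maf is also expressed in macrophages and microglia, most of whose markers were also higher in Lhx2 cKO. All 14 microglia markers were measured, and none was at 0. Of these 12 were called higher and 1 lower, beside 11.6% and 9.17% of all genes. Their summed level was 163.9 and 164.1 CPM in control 1 and 2, and 331 and 359 CPM in Lhx2 cKO 1 and 2. Within the Lhx2 cKO group, this sum was lower in Lhx2 cKO 1, where Maf and 7 of the 9 members in all were higher. An order of 2 libraries cannot decide which cells a change came from. C1qb was at 1.36, C1qc at 1.40 and Trem2 at 1.51 on the log2 fold change scale, all called. Tmem119, named after its values were seen, was the gene called lower (-1.04), and that call was lost without control 1 (adjusted p 0.0544) and without Lhx2 cKO 1 (0.0721). The part of these cells in the change of Maf was not tested.

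Lhx6 (ENSMUSG00000026890.20), the LIM-homeodomain factor that specifies MGE-derived interneurons, was at 70.9 and 48.8 CPM in control, against 60.2 and 54.7 CPM in Lhx2 cKO. Both Lhx2 cKO libraries lay between the controls, which differed from each other 1.45-fold, the widest replicate gap of the 9 members. The log2 fold change was -0.06 (SE 0.117, 95% interval -0.29 to 0.18, adjusted p 0.776 in edgeR). Without control 1 it was 0.22 (adjusted p 0.266) and without control 2 it was -0.30 (adjusted p 0.0685), so its direction rests on which control is used. The Sst to Lhx6 ratio per length was 4.04 and 5.69 in control, against 9.18 and 11.6 in Lhx2 cKO. The Maf to Lhx6 ratio was 0.841 and 1.05 in control, against 1.31 and 1.22 in Lhx2 cKO. The Gad1 to Lhx6 ratio, of a pair in which neither gene was called, overlapped at 0.374 and 0.5001 in control, against 0.427 and 0.414 in Lhx2 cKO.

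None of the 3 Dlx genes was called. Dlx2 (ENSMUSG00000023391.9), which acts early in the Dlx cascade, was at 19.9 and 17.4 CPM in control, against 24.7 and 22.6 CPM in Lhx2 cKO. The groups were separate. The log2 fold change of 0.35 (SE 0.131, 95% interval 0.08 to 0.61) had an adjusted p of 0.0541 in edgeR, just beyond the threshold, and was called with upper-quartile scaling (0.049). In the fits that left out 1 library the estimate was 0.25 to 0.43 with an adjusted p of 0.0681 to 0.321.

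Dlx1 (ENSMUSG00000041911.4), the neighbour and partner of Dlx2, was at 29.5 and 29.0 CPM in control, against 33.3 and 28.1 CPM in Lhx2 cKO. The Lhx2 cKO libraries lay on either side of the controls. The log2 fold change was 0.07 (SE 0.116, 95% interval -0.16 to 0.30, adjusted p 0.723 in edgeR), and -0.06 without Lhx2 cKO 1. The Dlx2 to Dlx1 ratio per length was 1.27 and 1.13 in control, against 1.40 and 1.52 in Lhx2 cKO, with no overlap.

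Dlx5 (ENSMUSG00000029755.11), which acts later in the cascade, was at 9.98 and 8.92 CPM in control, against 11.1 and 10.6 CPM in Lhx2 cKO. The groups were separate but close. The log2 fold change was 0.20 (SE 0.172, 95% interval -0.15 to 0.55, adjusted p 0.456 in edgeR). Its neighbour Dlx6 had 84 to 118 counts per library and an estimate of 0.39 on the log2 scale (SE 0.255, adjusted p 0.296). The Dlx5 to Dlx2 ratio was 0.633 and 0.648 in control, against 0.568 and 0.590 in Lhx2 cKO.

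**Figure D3:**
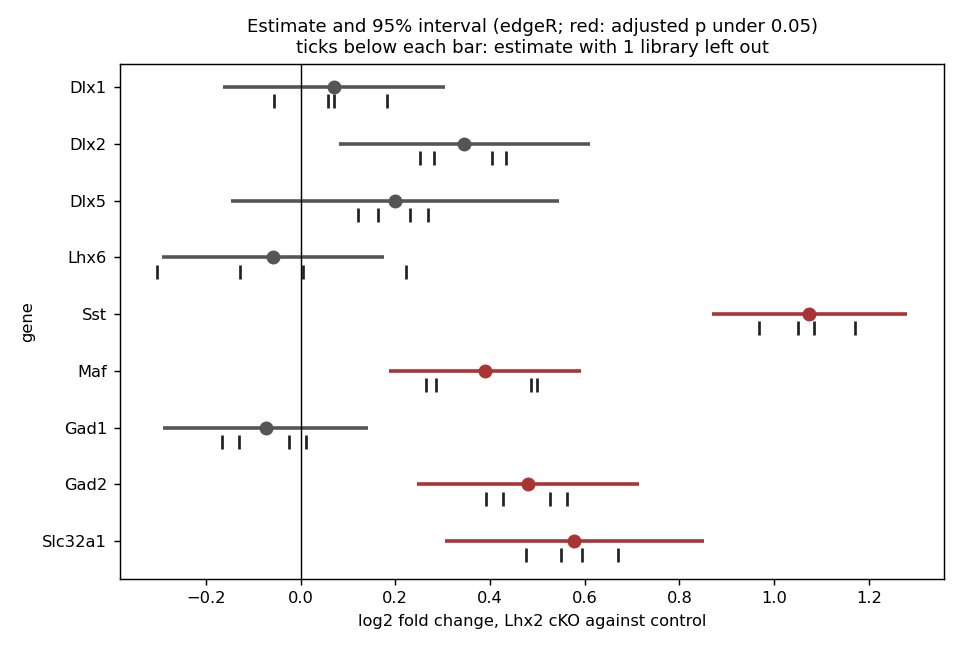
Log2 fold change between Lhx2 cKO and control for each member (x axis), with its 95% interval from edgeR as a bar and the 4 estimates with 1 library left out as ticks. Sst stands at 1.07, the called Slc32a1, Gad2 and Maf between 0.39 and 0.58, and the intervals of Dlx1, Dlx5, Lhx6 and Gad1 include 0.

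Per length, Sst was the highest member in both groups, at 58.7 ± 1.34 RPKM in control and 123.7 ± 12.1 RPKM in Lhx2 cKO (SD, n = 2). In control the order went on with Lhx6 (12.5 ± 3.25) and Maf (11.6 ± 1.21), which overlapped. Dlx2, Slc32a1, Dlx1, Gad1, Gad2 and Dlx5 followed, from 6.52 to 4.18 RPKM on average, where Dlx1 overlapped Gad1 and Gad2 overlapped Dlx5. In Lhx2 cKO Maf (15.1 ± 1.76) stood above Lhx6 (11.96 ± 0.809) without overlap. Slc32a1 and Dlx2 came next at 8.35 and 8.29 RPKM and overlapped. Gad2, Dlx1, Gad1 and Dlx5 were last, from 5.84 to 4.79 RPKM, and each overlapped the next. Gad2 moved from place 8 to place 6 of the 9, and Gad1 from place 7 to place 8. These levels depend on the deposited gene lengths, whose annotation is not given.

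Genes written down as further markers of the MGE-derived lineage split in direction. Of 17 listed, 15 were tested, 6 were called higher and 3 lower (9 of 15, against 20.8% of all genes), with a median log2 fold change of 0.36. Npy, a neuropeptide that many Sst interneurons make, rose from 31.2 to 74.2 CPM on average (1.25 on the log2 scale, adjusted p 2.74e-12 in edgeR). Nos1, which makes nitric oxide, fell from 110.5 to 66.0 CPM (-0.74, adjusted p 7.49e-07 in edgeR). Which cells of the tissue made Nos1 was not measured. Sox6 (-0.65) and Satb1 (-0.55), factors needed for the maturation of MGE-derived interneurons and also made by other cortical cells, were called lower. The other 5 called genes, named after their values were seen, were all higher. They were Nxph1 (0.59), Erbb4 (0.42), Kcnc1 (0.39), Cxcr4 (0.38) and Ackr3 (0.36) on the log2 fold change scale. Without Lhx2 cKO 2 none of these 5 was called (adjusted p 0.105 to 0.56), and the list had 4 calls in place of 9 and a median of 0.23. Without control 1 Erbb4, Cxcr4 and Ackr3 also lost their calls, as Cxcr4 and Ackr3 did in DESeq2 (adjusted p 0.0614 and 0.112).

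Genes of interneuron migration were likewise called in both directions. Of 18 listed, 15 were tested, with 6 called higher and 3 lower (background 11.6% and 9.17%) and a median log2 fold change of 0.36, or 0.18 without Lhx2 cKO 2. Cxcl12, the chemokine that draws interneurons along their migratory streams, fell from 52.7 to 25.9 CPM on average (-1.03, SE 0.113, adjusted p 2.61e-09 in edgeR). It had 1186 and 1413 counts in control against 532 and 651 in Lhx2 cKO, so the groups were far apart. Meningeal cells are a known source of Cxcl12. Of the collagens listed for them, Col1a1 fell from 24.4 to 3.05 CPM on average (-3.00, adjusted p 2.57e-14 in edgeR), with -3.88 without Lhx2 cKO 1 and -2.46 without Lhx2 cKO 2. Col1a2 was at 0.25 (adjusted p 0.365) and Col3a1 at 0.20 (adjusted p 0.392). The part of these cells in the change of Cxcl12 was not tested. The Cxcl12 receptors Cxcr4 and Ackr3, and Erbb4, stand in this list and in the MGE-derived list and were called in the other direction, as given above. Ccnd2, a cyclin of dividing progenitors, fell (-0.85), as did the semaphorin receptor Nrp2 (-0.86). The neurotrophin receptor Ntrk2 rose (0.62). Nrg1 and Nrg3, ligands of Erbb4, had log2 fold changes of -0.20 (adjusted p 0.242) and 0.68 (adjusted p 9.07e-06).

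A further list held genes that handle GABA after its synthesis. Of 11 listed, 9 were tested, with 2 called higher (1 without Lhx2 cKO 1) and 0 lower, beside 11.6% and 9.17% of all genes, and a median log2 fold change of 0.11, or 0.025 without Lhx2 cKO 2 and 0.19 without Lhx2 cKO 1. Slc6a11 (GAT-3), a GABA transporter best known from astrocytes, rose from 8.97 to 26.2 CPM (1.55, SE 0.154, adjusted p 2.37e-10 in edgeR). Abat, which breaks GABA down, was at 0.02 (adjusted p 0.924), and Gphn, which anchors GABA receptors, at 0.06 (adjusted p 0.808).

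Among transcription factors of the ganglionic eminences, 7 of 17 listed genes were tested, 1 was called higher and 1 lower, beside 11.6% and 9.17% of all genes, and the median log2 fold change was -0.09. Without Lhx2 cKO 2 that median was 0.07, and with only Lhx2 cKO 1 left out it was -0.27. The other 10, among them Gsx2, Nkx2-1, Isl1 and Lhx8, were not analysed here. Olig2 was called higher (1.28), Meis2 was called lower (-0.56), and both are also made by other cortical cells. Olig2 is also a marker of oligodendrocyte precursors, and 5 of the 6 other markers of these cells were called higher (background 11.6%). Among them Egfr was at 2.80, Olig1 at 1.26 and Pdgfra at 0.90. Sox10, with 17 to 46 counts per library, was not called (0.58, adjusted p 0.374 in edgeR), and its groups overlapped. Without Olig2 the summed level of these markers was 45.7 to 53.7 CPM in control and 85.97 to 95.2 CPM in Lhx2 cKO. The part of these cells in the change of Olig2 was not tested.

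**Figure D4:**
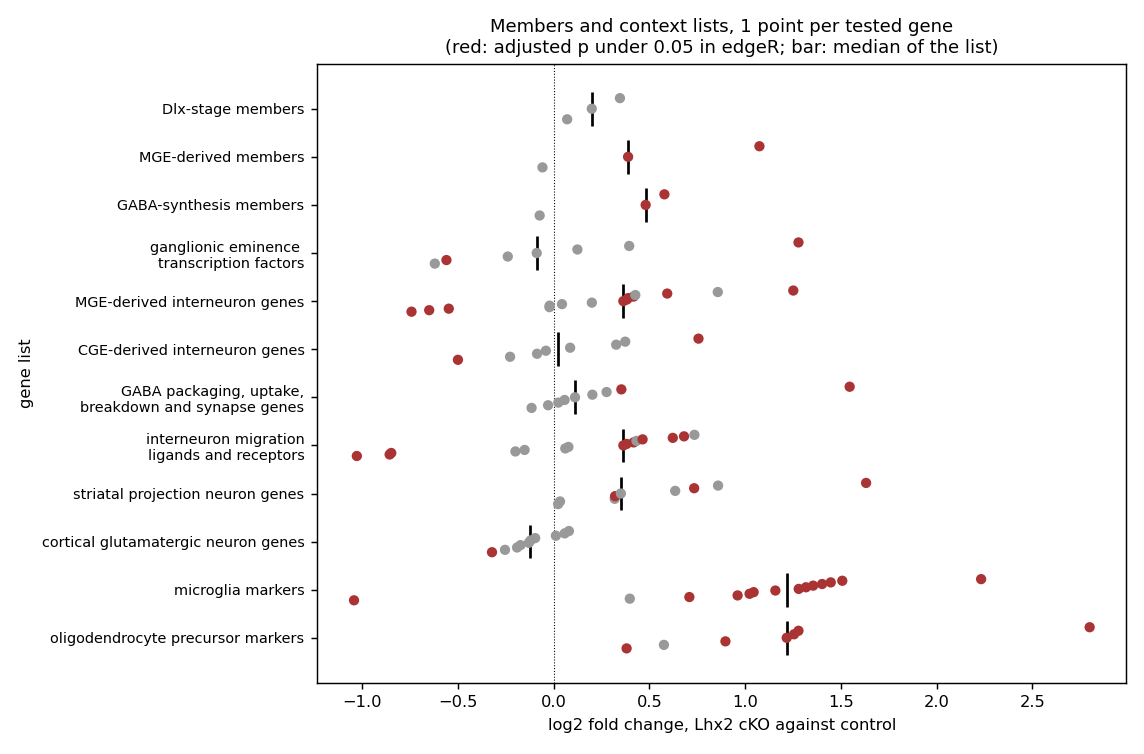
Log2 fold change between Lhx2 cKO and control (x axis) for the members by role and for the context lists, with 1 point per tested gene, red where called, and a bar at each list's median. The MGE-derived list has called genes on both sides of 0, and its median of 0.36 lies above that of the CGE-derived list.

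For interneurons from the caudal ganglionic eminence (CGE), 8 of 11 listed genes were tested. Of these 1 was called higher and 1 lower, beside 11.6% and 9.17% of all genes. The median log2 fold change was 0.02, at 0.098 without Lhx2 cKO 2, 0.066 without control 1, 0.013 without control 2 and -0.00062 without Lhx2 cKO 1. Cck was called higher (0.76) and Npas1 lower (-0.50). Without Lhx2 cKO 2 neither was called (adjusted p 0.0653 and 0.0687), and Npas1 was not called without control 1 (0.143). Prox1, Nr2f2 and Adarb2, which mark CGE-derived cells, were at -0.23, -0.04 and 0.09 with adjusted p of 0.718 to 0.897 in edgeR. Prox1 had only 38 to 70 counts per library. Calb2 (0.37, adjusted p 0.372) and Htr3a (0.33, adjusted p 0.525) were not called either, but both Lhx2 cKO libraries lay above both controls. For Nr2f1 (-0.09, adjusted p 0.597), also not called, both lay below. Whether the MGE and CGE lists differ was not tested.

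Other neuron classes bear on the level of GABAergic genes in a cortical dissection. Genes of striatal projection neurons, which are also GABAergic, had 9 of 16 tested, 3 called higher and 0 lower (background 11.6% and 9.17%), with a median log2 fold change of 0.35. Penk was called at 1.63, Drd1 at 0.73 and Foxp1 at 0.32. Drd1 lost its call without control 1 (adjusted p 0.111) and without Lhx2 cKO 2 (0.21), and Foxp1 without control 2 (0.289) and without Lhx2 cKO 1 (0.114). Ppp1r1b (DARPP-32) was at 0.03 (adjusted p 0.868) and Adora2a at 0.02 (adjusted p 0.953). The summed level of the striatal list was 143.5 to 169.3 CPM in control and 189.3 to 191.0 CPM in Lhx2 cKO. Foxp1 held the largest share of this sum, at 78.1 to 93.7 CPM in control and 103.4 to 111.1 CPM in Lhx2 cKO. Isl1, Drd2, Rarb, Rxrg, Six3, Tac1 and Pdyn of this list were not among the genes of the count table. Whether the rise of this sum came from striatal cells was not tested. The part of the striatal list in the rise of Gad2 and Slc32a1 was not tested. Genes of cortical glutamatergic neurons had 0 called higher, 1 lower (Neurod6, -0.32) and a median of -0.12. For 6 of the 10 both Lhx2 cKO libraries lay below both controls, against 3870 of all 13288 tested genes. For 1 of the 10 both lay above. Neurod6 lost its call without control 1 (adjusted p 0.158), Lhx2 cKO 1 (0.0748) or Lhx2 cKO 2 (0.0783). Vascular and meningeal markers had 5 called higher and 2 lower of 10 tested (background 11.6% and 9.17%), 7 calls in all, or 4 without control 1 or without Lhx2 cKO 2. The endothelial genes Cldn5 (0.70), Cdh5 (0.72), Pecam1 (0.51), Kdr (0.49) and Flt1 (0.46) were called higher, and Col1a1 (-3.00) and the pericyte gene Rgs5 (-0.34) lower. Without control 1 the calls of Kdr (adjusted p 0.316), Pecam1 (0.41) and Flt1 (0.2) were lost. Without Lhx2 cKO 2 those of Pecam1 (0.151), Flt1 (0.0813) and Rgs5 (0.0638) were lost, and without control 2 that of Rgs5 (0.0541). Of 9 cortical hem and choroid plexus markers listed, 2 were tested and 1 was called higher (background 11.6%). Rspo2 was called at 2.12, and Wnt2b was not called (0.45, adjusted p 0.406 in edgeR). Ttr, Folr1, Kcnj13, Otx2, Clic6, Wnt3a and Wnt8b were not among the genes of the count table.

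In the authors' deposited table Sst, Slc32a1, Gad2 and Maf also had an adjusted p under 0.05, as did 20.5% of its genes, and the other 5 members did not. The authors' deposited log2 fold changes were 1.06 for Sst, 0.57 for Slc32a1, 0.47 for Gad2 and 0.38 for Maf. The authors' deposited table marks only Sst of the 9 as up. On the exons annotated in GENCODE M21, Dlx1 overlaps Dlx1as, Slc32a1 overlaps Gm14205 and Maf overlaps Gm15655, each on the opposite strand. The use of strand in counting is not given in the sources used here, so reads from these partners cannot be told apart. The same holds for Dlx6, which overlaps Dlx6os2, and for Nos1, Ccnd2, Satb1, Penk, Olig1 and Pdgfra among the other genes named with values, while Lhx6 overlaps Gm27953 and Foxp1 overlaps Gm20696 on the same strand.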

How the data were processed

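Polyadenylated RNA of E15 cortex was sequenced in 2 control and 2 Lhx2 cKO libraries, grouped and numbered by their titles. The deposited values are raw read counts per gene, whole numbers made by the authors. Trim Galore, Subread, featureCounts and edgeR and the build mm39 are named in the submitters' processing notes. The annotation and the use of strand are not given in the sources used here. No row had a total under 102 counts, so rarer transcripts are not analysed here. The authors' table also holds their log2 fold change, mean log2 CPM, p-value and adjusted p-value, and -log10 of the adjusted p-value, deposited without the test behind them, and a gene length in bases deposited by the authors.

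Counts were tested with edgeR 4.0.16 in R 4.3.3 (TMM, filterByExpr with a minimum count of 10, quasi-likelihood test without covariates, two-sided), adjusted by Benjamini-Hochberg over 13288 genes. SE was derived from the F statistic as the size of the log2 fold change over its root. Means and SDs are of TMM-scaled CPM, and RPKM divides these by the deposited length. The test was checked on simulated data. The chi-square per degree of freedom between replicates was 13.9 in control and 14.3 in Lhx2 cKO, so no library was a copy. Alternatives were RLE, upper-quartile and total scaling, no filter, a mean count of at least 50, a replicate block, DESeq2 1.42.0, limma-voom (limma 3.58.1), an adjusted p under 0.01, and each library left out. Intervals and floors cover counting error only, except the 95% intervals of fold changes, which include the spread between libraries. In edgeR that spread was estimated with a median of 38.7 prior degrees of freedom, so it was mostly pooled over genes.

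The members, the 11 context lists (written from general knowledge) and the naming rule were chosen with earlier results of these data known. All members were described, and up to 4 called genes per list were named by smallest p. Some genes of these lists are counted but not reported singly here. Coordinates and upstream sequences are RefSeq's on GRCm38.p6, not on the build of the counts.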

Additional observations from a re-analysis of the deposited data

How the results depend on the processing

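With all libraries, the 4 called members kept their calls under every alternative scaling, filter, tool and threshold and under the replicate block, with an adjusted p of at most 0.0109. Dlx2 became called with upper-quartile factors (log2 fold change 0.349, adjusted p 0.049) and with the replicate block (0.348, adjusted p 0.0485), over a range of 0.0485 to 0.133. Between 3 and 5 members were called over all settings. Lhx2 (-0.31, adjusted p 0.0191) missed the threshold of 0.01, which gave 1697 genes called in place of 2758. The replicate numbers share only a number: deviations of replicate 1 from replicate 2 had a correlation of 0.001 across genes between the groups, and the replicate block gave 2874 calls. The glutamatergic list had 2 calls in place of 1 with RLE or upper-quartile factors and with the block.

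Leaving out 1 library left 1 in its group, which these fits assume to vary like the other group. They gave 1633 to 2396 calls, with 1790 without control 1 and 1633 without Lhx2 cKO 2. Lhx2 ranged from -0.38 to -0.25 and kept its call in 1 of 4 fits, and Maf ranged from 0.27 to 0.50 and kept it in 2. Members that were not called changed sign: Dlx1 ranged from -0.056 (without Lhx2 cKO 1) to 0.18, Lhx6 from -0.30 to 0.22 (without control 1; 0.0061 without Lhx2 cKO 2) and Gad1 from -0.17 to 0.011 (without Lhx2 cKO 2). The cause was not tested. In a design of 2 against 2, a difference of the size of that of Dlx2 lies near what the spread between libraries allows to be called.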

Other observations

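Within groups, the members mostly differed in the same direction between libraries. Control 1 was above control 2 for 8 of the 9 members, the exception being Slc32a1, against 49.8% of all tested genes. Lhx2 cKO 1 was above Lhx2 cKO 2 for 7 of the 9, all but Sst and Slc32a1, against 47.9% of all tested genes. The gaps ranged up to 1.45-fold (Lhx6) between controls and up to 1.18-fold (Dlx1) between the Lhx2 cKO libraries where the first was higher. Sst and Slc32a1 are the pair whose level was lower in Lhx2 cKO 1, at 0.870 and 0.876 of Lhx2 cKO 2. These members share their libraries and are not independent of each other.

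By root mean square distance of centred log2 CPM over the 4 libraries, the genes of at least 5 CPM most like the mean profile of the GABA members were Trim13, Tmem256 and Armc2 (distances 0.0089 to 0.015). For the MGE-derived members they were Lingo3, Tmem192 and P2rx2 (0.020 to 0.025), and for the Dlx members Vsig10l, Pkp4 and Coa7 (0.014 to 0.020). With 4 libraries and 10957 candidate genes, such closeness is a description only.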
